A study of Mus musculus with 6 samples.

Results

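The mature strands of miR-330 and miR-125b, microRNAs (miRNAs) studied in renin cells of the kidney, were followed in cultured cells of the renin lineage. They were read by the probes mmu-miR-330, mmu-miR-330*, mmu-miR-125b-5p, mmu-miR-125b-3p and mmu-miR-125b* (written without the species prefix from here on), 5 of the 599 miRNA probes on the array, chosen by name and found in all 6 spot files and in the deposited series table. The samples were cultures of arteriolar smooth muscle cells from mouse kidney, a primary line of the renin cell lineage from mice of mixed 129Sv/C57Bl6 background, at passage 7. The 3 forskolin cultures received 10 µM forskolin, which activates adenylyl cyclase, with 100 µM IBMX, which blocks the breakdown of cyclic AMP, for 24 h, and a second dose of 10 µM forskolin for the last 30 min. The 3 controls got no treatment, and the labels name no vehicle. The 6 cultures were biological replicates of the same line, each grown separately per the series' design, so their spread is not that between animals. The treatment was meant to induce renin, per the series title.

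A miRNA hairpin is cut by Drosha and Dicer into a duplex of a 5p and a 3p strand, of which Argonaute usually keeps the guide and the passenger (the star strand of older names) is lost. The retained strand pairs with messenger RNAs through its seed, bases 2 to 8. miR-125b-5p is abundant in smooth muscle and other mesenchymal cells. Cyclic AMP is the main inducer of renin in the cells that make it, the juxtaglomerular cells of the afferent arteriole.

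The mature sequences targeted by the probes are shown because the older names hide which strand was measured. They are written 5′ to 3′ with the seed in capitals.
mmu-miR-330: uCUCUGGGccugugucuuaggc
mmu-miR-330*: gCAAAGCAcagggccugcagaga
mmu-miR-125b-5p: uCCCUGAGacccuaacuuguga
mmu-miR-125b-3p: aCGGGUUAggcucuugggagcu
mmu-miR-125b*: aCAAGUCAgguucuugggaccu

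All 5 matched a mature sequence in RefSeq (GRCm38.p6) exactly. The probe called miR-330 targets the strand now named miR-330-5p (chr7:19181486-19181507, plus strand), and miR-330* targets miR-330-3p (chr7:19181525-19181547, plus strand). Both lie in Mir330, within the span of Eml2, a gene for a microtubule-associated protein. In the Mir330 hairpin both arms are in capitals.
Mir330: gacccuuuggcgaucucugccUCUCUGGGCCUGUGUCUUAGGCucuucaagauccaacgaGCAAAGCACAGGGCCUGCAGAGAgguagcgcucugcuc
The sequence of miR-125b-5p is encoded by 2 genes, Mir125b-1 (chr9:41581940-41581961, plus strand) and Mir125b-2 (chr16:77646279-77646300, plus strand), so its probe reads the sum of both. The passenger strands differ between the genes and were measured apart. miR-125b-3p comes from Mir125b-1 (chr9:41581980-41582001), which lies within the long non-coding RNA gene Mir100hg, and miR-125b* comes from Mir125b-2 (chr16:77646318-77646339). These passengers differ at 5 of 22 positions, G3A, G4A, U7C, C11U and G20C, written as the base of miR-125b-3p, the position from its 5′ end and the base of miR-125b*. The Mir125b-1 hairpin, with its arms in capitals, shows the layout shared by the 2 genes.
Mir125b-1: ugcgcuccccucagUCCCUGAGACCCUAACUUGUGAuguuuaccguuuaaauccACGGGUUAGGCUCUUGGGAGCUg

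The arrays set what could be seen. Each probe had 5 spots per array, and a probe counted as detected where their mean exceeded the mean of the 669 empty spots of that array by over 3 times the SD of those spots. This limit lay between 174.1 and 243.0 in the 3 samples stained with Cy3 (control 1, control 3 and forskolin 2) and between 37.2 and 49.7 in the 3 stained with Cy5. By it, 162 to 225 of the 599 probes were detected in 5 samples and 585 in forskolin 2, where even dim miRNA probes read above the empty spots (a mean of 220.8 for the dimmer probes against 192.1). With the limit set from the dimmer probes in place of empty spots, forskolin 2 had 183 detected probes. Of the 5 smooth muscle markers miR-143, miR-145 and miR-145* were detected in 6 of 6 samples, and miR-133a and miR-1, which are chiefly striated muscle miRNAs, in 1 each. No endothelial, kidney epithelial or blood marker was detected in all 6, but the kidney epithelial miR-192 and miR-194 were detected in 1 control and 3 forskolin samples each. Of the neural list miR-128, a widely expressed miRNA, was the 1 detected in all. With 3 arrays a group, the precision of each value below is limited by that number.

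miR-125b-5p, the guide strand, was far above background in every sample. Its mean spot intensity was 33973, 22018 and 33779 in control 1, 2 and 3, and 31010, 29281 and 24775 in forskolin 1, 2 and 3. The groups overlapped on this unscaled intensity, and the lowest value was that of a control stained with Cy5. The 5 spots of an array had a coefficient of variation of 0.557% to 5.30%, so the spots of an array differed far less than the samples did. The brightest spot of any array, 58809, shows that the scanner could read above these values.

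By rank, which no scaling of an array can change, miR-125b-5p ranked 3 among the 599 probes in control 1 and control 2 and 2 in control 3. It ranked 3 in forskolin 1, 5 in forskolin 2 and 8 in forskolin 3. In the deposited table its ranks were the same except in forskolin 3, where it ranked 11. That table thus differs from the spot means of forskolin 3 by more than a scaling of the array. In order of mean normalized level over the 6 samples it stood between miR-709 and let-7a. The level of let-7a differed from it by -0.04 on the log2 scale, less than its own SD of 0.31 over the 6 samples, as did that of let-7c, by -0.21. let-7f, at -0.36, and miR-709, at 0.39, were further away than that SD. These are orders of probe signal, since probes bind with different strength.

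The other 4 strands were at or near the limit. miR-330* (miR-330-3p) read 2.39, 3.28 and 3.30 SDs above the empty-spot mean in control 1, 2 and 3, and 3.04, 8.79 and 2.94 SDs in forskolin 1, 2 and 3. It thus passed the limit of 3 SDs in 2 of 3 control and 2 of 3 forskolin samples. Forskolin 3 lay just under the limit and control 1 further below. miR-330 (miR-330-5p) read 0.612, 1.64 and 2.04 SDs in the controls and 0.514, 3.22 and 1.22 in the forskolin cultures. It was detected in no control and in 1 forskolin sample, forskolin 2.

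The passenger strands of miR-125b were also dim. miR-125b-3p read 1.68, 2.18 and 4.26 SDs above the empty spots in controls and 1.30, 5.42 and 1.33 in forskolin cultures, and was detected in 1 sample of each group. miR-125b* read 0.740, 1.71 and 1.81 SDs in controls and 0.389, 4.51 and 0.729 in forskolin cultures, and was detected in forskolin 2 alone. In that sample all 5 strands passed the limit, as did 585 of the 599 probes. Against the dimmer probes in place of empty spots, miR-330 and miR-125b* were detected in 0 of 6 samples, miR-125b-3p in control 3 only, and miR-330* in control 1 and all 3 forskolin samples.

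**Figure D1:**
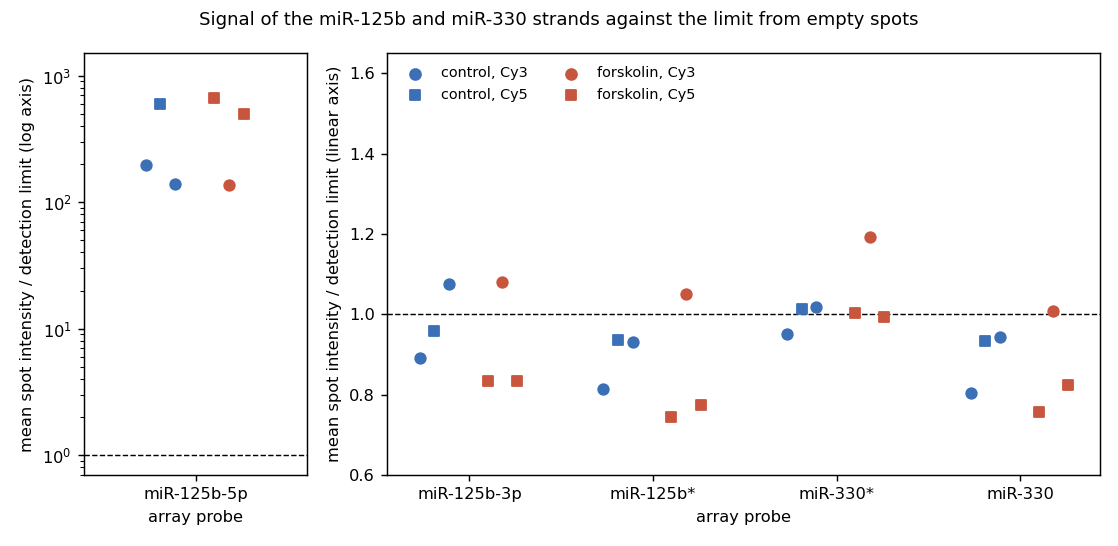
Mean of the 5 spots of each probe divided by the detection limit of the same array (mean plus 3 SDs of its empty spots), for each sample, with miR-125b-5p on a log axis at the left and the other 4 strands on a linear axis at the right. Colour gives the group, the symbol gives the dye and the dashed line marks the limit. miR-125b-5p sits at 137 to 670 times the limit, while the other strands sit between 0.743 and 1.19 times it, and forskolin 2 is the highest forskolin point of each of the 4.

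In units of intensity, the dim signal moved with the dye. The excess of miR-330* over the empty spots was 34.1, 47.2 and 62.1 intensity units in the Cy3 samples control 1, control 3 and forskolin 2, and 6.08, 13.8 and 14.5 in the Cy5 samples control 2, forskolin 1 and forskolin 3. The dyes did not overlap for miR-330* in these units, whereas for miR-125b-5p the excess was 29089 to 33842 with Cy3 and 21986 to 30977 with Cy5, which overlap. Counted in SDs of the empty spots, miR-330* did overlap between the dyes. It read 2.39, 3.30 and 8.79 SDs in those Cy3 samples and 3.28, 3.04 and 2.94 SDs in those Cy5 samples. In each pair with the same replicate number, the control and the forskolin sample carried opposite dyes. The part of the dye in the differences between dim strands was not tested.

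The ratio of the strands was taken on each array from the excess over empty spots, with a strand under the limit set to 3 SDs, which makes the ratio a bound. It is a ratio of probe signals and not of molecules. miR-125b-5p over miR-125b-3p was at least 790 in control 1, at least 3960 in control 2 and 551 in control 3, where both strands were detected. It was at least 2268 in forskolin 1, 758 in forskolin 2 by the same rule, and at least 1674 in forskolin 3. Over miR-125b* the ratio was at least 790, 3960 and 783 in control 1, 2 and 3, at least 2268 in forskolin 1, 912 in forskolin 2, and at least 1674 in forskolin 3. The passengers passed in forskolin 2 as nearly every probe did, and against the dimmer probes both ratios there were bounds, at least 1143. By the empty-spot rule the guide signal was thus 551 times that of either passenger or more in every sample. This figure depends on the background taken off. On intensity before any correction, the ratio to miR-125b-3p was 129 in control 3 and 127 in forskolin 2. The bounds were highest in the Cy5 samples, whose limits were lowest.

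Whether forskolin changed these ratios could not be measured, since 4 of 6 and 5 of 6 of them were bounds. Taken as values, the mean log2 ratio of forskolin minus control cultures was 0.25 for miR-125b-3p and 0.17 for miR-125b*, at two-sided exact permutation p-values of 0.9 and 0.8, where 3 samples against 3 cannot go below 0.1. In the deposited table the differences were -0.34 and -0.44, of the opposite sign, both at an exact permutation p of 0.2. No direction is therefore given.

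The order of the miR-330 strands could not be settled, since miR-330 was under the limit in 5 of 6 samples and different probes bind with different strength. Before any correction, the intensity of miR-330* exceeded that of miR-330 in 6 of 6 samples, by 1.18, 1.09 and 1.08 times in control 1, 2 and 3 and by 1.33, 1.18 and 1.21 times in forskolin 1, 2 and 3. In the deposited table miR-330* was also the higher of the pair in 6 of 6 samples, with miR-330 close to the column medians, so no fold is given. Over empty spots the ratio was at least 1.09, 1.10 and 1.01 in control 2, control 3 and forskolin 1, and 2.73 in forskolin 2, where both strands passed. Against the dimmer probes miR-330 did not pass in forskolin 2, and the ratio there was a bound, at least 1.32. In control 1 and forskolin 3 neither strand passed the limit. With the bounds taken as values, the difference in log2 ratio between 2 forskolin and 2 control samples was 0.60, at an exact permutation p of 1. Only forskolin 2 among them was not a bound, and 2 samples against 2 cannot go below a p of 0.333. With forskolin 2 left out the difference was -0.12.

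The question of the comparison was whether these strands differed after forskolin and IBMX. Of the 5 members 1 was bright enough for the test, miR-125b-5p, and it did not pass. The 167 probes detected in all samples of a group were tested with limma on quantile-normalized log2 intensities with a term for the dye, and 10 of them, 5.99%, passed a Benjamini-Hochberg adjusted p of 0.05 (3.59% in the downward direction). With the replicate number as a block, 30 passed (18%, or 7.19% downward), and again no member was among them. The block fit gave every tested probe the same SE, 0.298, so its p-values do not reflect the spread of each probe. Over all 599 probes, with the 4 dim strands included, 0.167% passed and no member did.

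The normalized log2 intensity of miR-125b-5p was 14.93, 14.93 and 15.25 in control 1, 2 and 3 and 14.93, 14.61 and 14.36 in forskolin 1, 2 and 3. The highest value was a control and the lowest 2 were forskolin cultures, but the groups met at 14.93, a value that quantile normalization gives to the probe of rank 3 in any sample. Values of the groups lay apart in 23.4% of the tested probes. The group means were 15.04 ± 0.18 and 14.63 ± 0.29 (SD, n = 3 each). Forskolin cultures were lower by a fitted log2 fold change of -0.38, with a standard error (SE) of 0.25 and a 95% confidence interval from -0.97 to 0.20, that is 1.30-fold lower, at a limma adjusted p of 0.455. With the replicate block the limma adjusted p was 0.540. The interval holds both no change and a difference of almost 1 log2 unit downward.

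By replicate pair, the change depended on how the arrays were processed. On the unscaled excess over empty spots miR-125b-5p went from 33842 to 30977 in pair 1, from 21986 to 29089 in pair 2 and from 33579 to 24740 in pair 3. These are log2 changes of -0.13, 0.40 and -0.44, so pair 2 went the other way. After quantile normalization the log2 changes were 0, -0.32 and -0.89, where 25.7% of tested probes were lower in all 3 pairs. In the deposited table the values were 36971, 34627 and 41613 in control 1, 2 and 3 and 26554, 23384 and 16822 in forskolin 1, 2 and 3, so the groups did not overlap and all 3 pairs were lower.

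The log2 changes of those deposited values were -0.48, -0.57 and -1.31. The group means were 37737 ± 3555 and 22253 ± 4964 (SD, n = 3 each), 41.0% lower with forskolin, at an exact permutation p of 0.1, the smallest that 3 samples against 3 allow. limma with the dye term gave a log2 fold change of -0.43 at an adjusted p of 0.450 on this table after an offset of 50 and quantile normalization. With no more normalization, a setting chosen after seeing the data, it gave -0.73 at an adjusted p of 0.208. Such a pattern was common in that table, where the groups lay apart for 31.1% of the 167 probes, 16.8% with forskolin wholly below the controls, and 29.9% were lower in all 3 pairs. How the deposited table was scaled between samples is not given in the sources used here. Across settings the difference ran from a log2 fold change of -0.86 with cyclic loess to 0.059 with no normalization, where the median of the tested probes was 0.48.

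**Figure D2:**
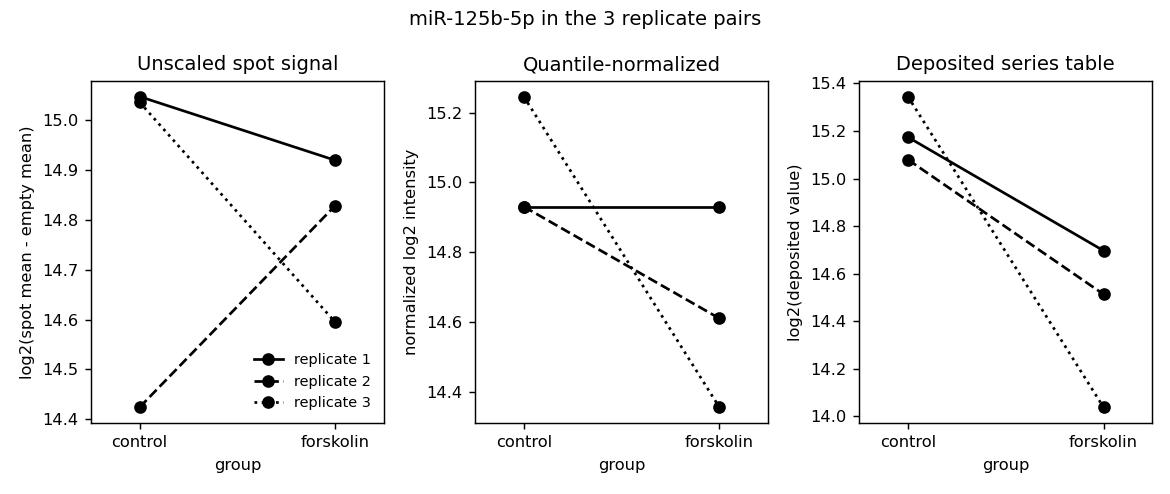
miR-125b-5p in paired control and forskolin samples, as log2 of the unscaled excess over empty spots (left), quantile-normalized log2 intensity (middle) and log2 of the deposited value (right), each line joining 1 pair. The lines fall in 2 of 3 pairs on the unscaled scale, in 2 of 3 after quantile normalization with 1 at 0, and in 3 of 3 in the deposited table.

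**Figure D3:**
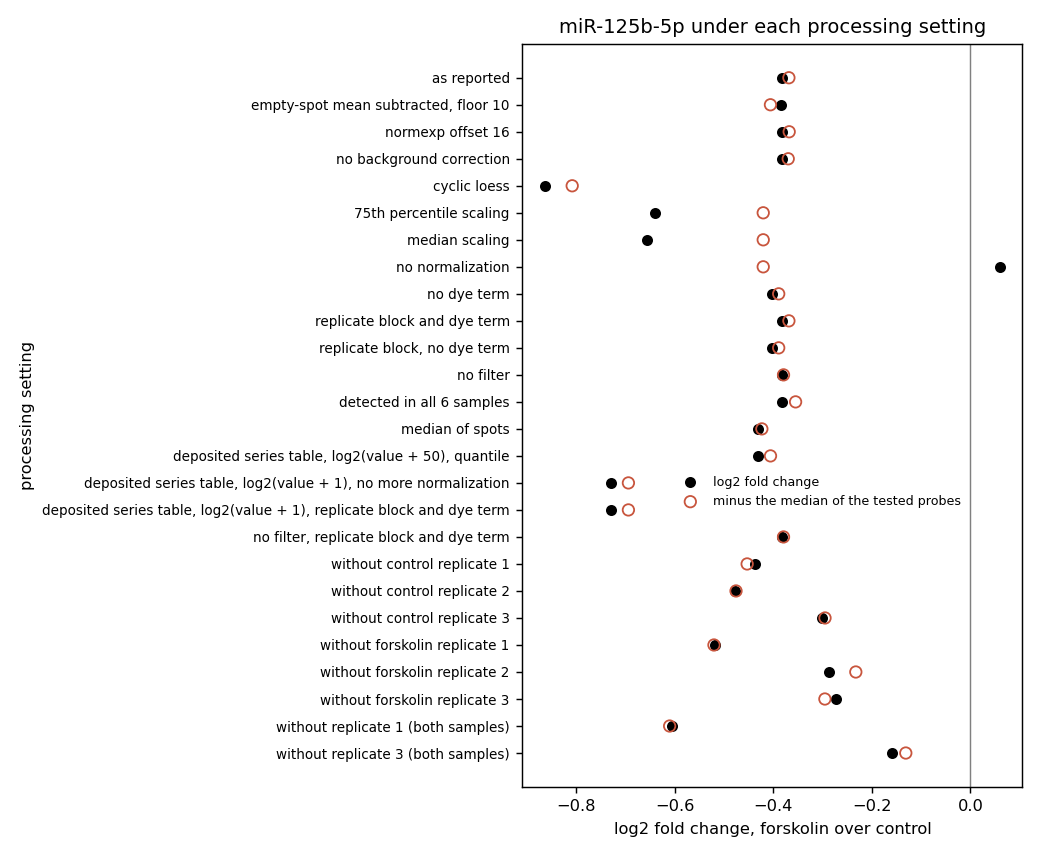
Log2 fold change of miR-125b-5p (horizontal axis, forskolin over control) under each processing setting (vertical axis), as fitted (filled) and after subtracting the median of the tested probes (open). The filled points run from -0.86 to 0.059, and the open points all lie below 0, from -0.81 to -0.13.

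Ratios within an array do not depend on its scaling, and miR-125b-5p was therefore set against its relatives. This choice was made after the values above were seen. miR-125a-5p and miR-351 are the 2 other probes on the array with the same seed, and their sequences show how close the family is.
miR-125a-5p: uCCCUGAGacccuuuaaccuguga
miR-351: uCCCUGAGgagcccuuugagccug
miR-125a-5p is 3 edits away from miR-125b-5p and miR-351 is 10 edits away, and cross-hybridisation between these probes was not tested.

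The signal of miR-125b-5p over miR-125a-5p was 2.43, 3.06 and 2.37 in control 1, 2 and 3 and 1.97, 1.62 and 1.41 in forskolin 1, 2 and 3. Every forskolin ratio lay below every control ratio, by 0.66 on the log2 scale on average, or 1.58-fold, at an exact permutation p of 0.1. Within the dyes, each with 1 sample in a group (forskolin 2 for Cy3, control 2 for Cy5), the log2 differences were -0.57 for Cy3 and -0.88 for Cy5, a direction already fixed by groups that do not overlap. For miR-125a-5p itself the fitted log2 fold change was 0.02 (SE 0.20), at a limma adjusted p of 0.962. A ratio compares the 2 probes and does not say which of them differed.

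Other relatives were taken from the clusters that carry miR-125b and miR-125a. Each miR-125 hairpin there has a miR-99 or miR-100 hairpin and a let-7 hairpin as partners. These lie 45.1 to 50.4 kb away for the miR-125b hairpins and 0.367 to 0.554 kb away for the miR-125a hairpin. Against let-7a, the ratio of miR-125b-5p was 1.30, 1.27 and 1.34 in controls and 1.04, 0.890 and 0.576 in forskolin cultures. Against let-7c it was 1.50, 1.42 and 1.55 in controls and 1.09, 0.997 and 0.638 in forskolin cultures. Both sets of ratios were lower in every forskolin sample than in every control, by 1.61-fold and 1.68-fold on average, and the mature let-7a and let-7c come from several genes, so their probes do not read these clusters alone.

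Of the 9 ratios to relatives, 4 had forskolin values wholly below the controls (those to let-7a, let-7c, miR-125a-5p and miR-351), none had them wholly above, and 5 overlapped. All 4 had an exact permutation p of 0.1, or 0.225 after Benjamini-Hochberg adjustment over the 9, and they share a numerator. Over all 150 other probes detected in every sample, 14.7% of the ratios of miR-125b-5p lay wholly below the controls in forskolin cultures. The ratio to miR-351 was 52.5, 159.8 and 49.0 in controls and 24.2, 18.0 and 27.6 in forskolin cultures, beside a log2 fold change of 1.19, SE 0.30, for miR-351 itself, at a limma adjusted p of 0.0714. With the replicate block miR-351 was higher in 3 of 3 pairs, at a limma adjusted p of 0.0011. That p rests on the SE shared by all tested probes in the block fit, not on the spread of miR-351 itself. Ratios to miR-99a, miR-99b, miR-100, let-7e and miR-125a-3p overlapped between the groups. Except for let-7e, these ratios were lower in every Cy3 sample than in every Cy5 sample. For miR-100 they were 12.9 to 22.4 with Cy3 and 38.5 to 64.8 with Cy5. Each group held both dyes, though unequally. Within Cy3 the log2 differences were -0.39 for miR-99a, -0.10 for miR-99b, 0.31 for miR-100, -0.67 for let-7e and -0.002 for miR-125a-3p. Within Cy5 they were -1.92, -0.76, -0.68, -1.06 and -1.50 in the same order. Each of these rests on 1 sample in a group, and the part of the dye in the overlap was not tested.

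**Figure D4:**
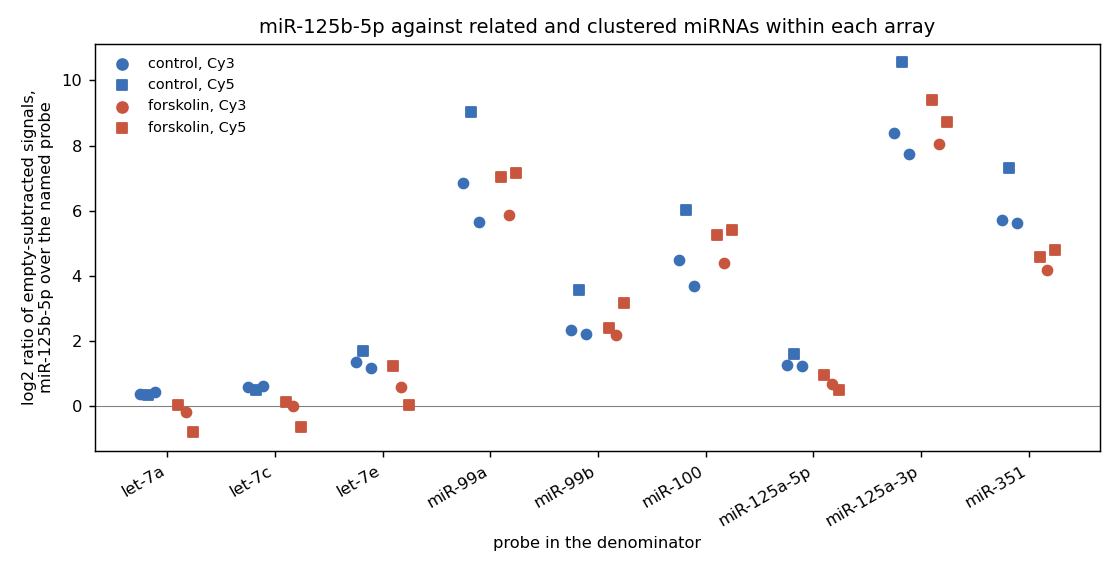
Log2 ratio of the empty-subtracted signal of miR-125b-5p to that of 9 related or clustered miRNAs on the same array, by sample, with colour for the group and symbol for the dye. The forskolin points lie below the control points for let-7a, let-7c, miR-125a-5p and miR-351, and overlap them for the other 5.

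The clustered miRNAs showed no shared change in the fit itself. Of the 12 listed strands of these clusters 11 had a probe and 9 were tested, and 0 passed in limma at an adjusted p of 0.05, with 4 log2 fold changes below 0 and 5 above. Their median was 0.02, beside -0.01 for all 167 tested probes, and the range was -0.53 to 0.16. The lowest was that of miR-100, at -0.53, SE 0.24, and a limma adjusted p of 0.306. Mir100 lies 50.4 kb from Mir125b-1. The normalized log2 level of miR-100 was 10.15, 10.50 and 10.19 in controls and 9.87, 9.92 and 9.48 in forskolin cultures, which did not overlap. Of the 167 tested probes 13.2% had normalized values wholly below the controls in this way, and miR-100 was the 1 of these 9.

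The 5 tested probes whose normalized levels followed miR-125b-5p most closely over the 6 samples were miR-145 (Pearson r of 0.966), miR-690 (0.924), miR-29a (0.918), miR-31 (0.912) and miR-214 (0.908). miR-145 is a miRNA of the contractile smooth muscle phenotype. These correlations are descriptions over 6 samples that share a normalization and include the difference between the groups.

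For the 4 dim strands a fit over all 599 probes gave values but no call, and their levels lie close to the floor. miR-330* was at a normalized log2 intensity of 6.59, 6.74 and 6.42 in controls and 6.62, 6.66 and 6.49 in forskolin cultures, which overlapped closely. Its log2 fold change was -0.02, SE 0.11, at a limma adjusted p of 0.985. In the deposited table, in whole units of intensity, it read 26, 19 and 14 in controls and 28, 27 and 19 in forskolin cultures, with log2 changes of 0.11, 0.51 and 0.44 in pairs 1, 2 and 3. After quantile normalization the pair changes were 0.03, -0.08 and 0.07, so the sign of pair 2 differed between the tables.

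miR-330 had deposited values of 7, 11 and 7 in controls and 13, 4 and 12 in forskolin cultures, beside column medians of 8 to 11 over all probes. Its pair changes there were 0.89, -1.46 and 0.78 on the log2 scale, and 0.05, -0.22 and 0.02 after quantile normalization. Pair 2, with the forskolin sample in Cy3 and the control in Cy5, went against the other pairs in both. The log2 fold change in the fit over all probes was -0.09, SE 0.04, at a limma adjusted p of 0.636. miR-326, the 1 other probe on the array with the seed of miR-330, was detected in 0 control samples and 1 forskolin sample.
miR-326: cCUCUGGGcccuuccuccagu

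miR-125b-3p was at 6.47, 6.49 and 6.50 in controls and 6.42, 6.36 and 6.35 in forskolin cultures after normalization. These values did not overlap, as for 6.18% of all 599 probes in this direction, and all 3 pairs were lower, at -0.05, -0.13 and -0.14, as for 14.7% of the 599. The log2 fold change was -0.11, SE 0.03, with an unadjusted p of 0.0232 and an adjusted p of 0.435 in limma. The deposited values were 15, 19 and 19 in controls and 13, 15 and 11 in forskolin cultures, which met at 15. miR-125b*, from the other gene, was at deposited values of 9, 13 and 10 and of 8, 9 and 8, and its fitted log2 fold change was -0.06 (SE 0.03), at a limma adjusted p of 0.792. Both passengers were under the limit in most samples of each group.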

How the data were processed

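RNA of 6 cultures was size-selected, tailed, tagged and stained with Cy3 or Cy5 by a service provider, per the labels' protocols. The spot files hold a mean intensity per spot, before any subtraction of background, per the file headers. The deposited series table holds 1 whole-number intensity per probe and sample, on a linear scale. Its log2 values tracked those of the spot excess over empty spots (Pearson r of 0.996 or above over 151 probes), and how the authors normalized it is not given in the sources used here.

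Background was corrected with normexp (offset 50), the 5 spots of a probe averaged, and log2 values quantile-normalized over the 599 probes. The fit was limma 3.58.1 (R 4.3.3), lmFit and eBayes with terms for treatment and dye. Because the offset is added to every intensity, changes of dim probes are understated. Steps were tested on simulated data with larger changes than that of miR-125b-5p and no probe-specific effect of dye or pair. That test therefore does not cover small changes or such effects. Same-numbered control and forskolin samples deviated together from their group means (r of 0.397, 0.473 and 0.359), so the numbers were taken to pair the samples. That pairing rests on these data. Names outside the members were set by a rule (seed mates, cluster partners, the nearest in level and the 5 most alike). The members, lists and rules were chosen with earlier results of these data known. Alternatives covered background, normalization, dye, block, filter, spot average, the deposited table and samples left out.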

Additional observations from a re-analysis of the deposited data

How the results depend on the processing

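No member passed under any of 25 other fits. Only the fits with no filter held the other 4 strands, and the rest tested miR-125b-5p alone of the members. The log2 fold change of miR-125b-5p ran from -0.86 (cyclic loess, limma adjusted p of 0.116) to 0.059 (no normalization, limma adjusted p of 0.969). Without normalization the median of the tested probes rose to 0.48, and relative to that median miR-125b-5p was below 0 in 25 of 25 fits, from -0.81 to -0.13. With samples left out its log2 fold change was -0.61 to -0.16, the latter without both samples of replicate 3. The count of 10 called probes was 4 with empty-spot subtraction, 5 with no normalization, 5 with the median of spots, 18 with no dye term, 30 with the replicate block and dye term, 24 with the replicate block and no dye term, 1 with no filter, and 0 with no filter and the replicate block (62 at an unadjusted p under 0.05). It was 6 in the deposited table and 30 there with the replicate block, settings chosen after seeing the data. It ran from 0 to 12 with 1 sample left out (0 without control 2, with 20 at an unadjusted p under 0.05, 0 without forskolin 2, with 22, and 3 without control 3). It was 0 without both samples of replicate 1 (17) and 24 without both of replicate 3. Without replicate 2 dye and treatment cannot be told apart, so that fit was not run. The cause of these shifts was not tested. The strand ratio differences, which rest on bounds, ran from -0.31 to 1.11 for miR-125b-3p, from -0.23 to 0.94 for miR-125b* and from -0.12 to 1.32 for miR-330 with 1 sample left out. Without both samples of replicate 1 or 3 the first was -0.39 or -0.43 and the second -0.51 or -0.30. Without both samples of replicate 2 they were 1.56 and 1.31 and the third was -0.12, and in the deposited table the first pair was -0.34 and -0.44. The log2 difference of miR-330* was 0.15 within Cy3 and -0.18 within Cy5. The replicate block changed no call of a member. Among the relatives named it changed the call of miR-351 (limma adjusted p of 0.0011, with an SE shared by all tested probes). Signal over background limits what can be said of the other 4 strands.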
